A study of Rattus norvegicus with 12 samples.

Results

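The Nogo receptor family and its partners were followed by 6 genes: the receptors Rtn4r, Rtn4rl1 and Rtn4rl2, the ligands Rtn4 (Nogo) and Omg (oligodendrocyte myelin glycoprotein), and the coreceptor Lingo1. Their probes were found through the RefSeq transcript that each probe names, and the brightest probe of a gene gave its main value. All 6 were measured, among 21250 genes or unnamed targets, by 8 probes that lay well above background on all 12 arrays. Earlier results of these data, among them the higher Rtn4r of blocked cultures, were known when the genes were picked, and the rule takes their levels in all 4 groups. Their levels and differences are therefore given as a description, with the standard error (SE) of the fit. Where it is said that they passed the threshold of the fit across all genes, this is part of that description and not support.

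The cultures were hippocampal neurons of Wistar rat embryos (embryonic day 18), kept for 14 to 15 days in vitro. Blocked cultures received 50 µM GYKI-52466, an antagonist of AMPA-type glutamate receptors, together with 10 µM MK-801, an NMDA receptor antagonist, for 9 h or 26 h. Untreated cultures of 9 h and of 26 h were the controls, and each of the 4 groups had 3 arrays, from independent cultures per the labels. The series asks which transcripts change while synaptic input is silenced.

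The share of spots well above background was 77.6% to 86.8% per array, and arrays of a group correlated across genes at 0.985 to 0.994. The 12 arrays lay on 6 slides scanned on 2 days, as the file headers show. On day 1 these were the untreated arrays of 9 h and the blocked ones of 26 h, on day 2 the reverse. A difference at either time thus compares arrays of different days, whereas in their mean each day and slide enters equally on both sides. The treatment showed in activity-driven genes: Bdnf was lower by a mean log2 difference of -2.59, and Arc (-2.79), Fos (-1.74), Nr4a1 (-2.56) and Npas4 passed as lower as well (limma, Benjamini-Hochberg, all 5 past 0.05 at both times too). Npas4 differed by -2.65 at 9 h. At 26 h its probe was not well above background on any blocked array, and it was at least 61.2-fold lower there (the untreated mean against, on each blocked array, the higher of its own reading and the dimmest probe well above background). As a check of the labelled cell type, 8 of 8 neuronal markers were measured, Rbfox3, Map2, Tubb3, Syn1 and Snap25 among them. Astrocyte (8 of 9 markers), oligodendrocyte lineage (12 of 14), microglial (8 of 8) and meningeal or fibroblast transcripts (7 of 7) were measured too. In such bulk samples, fewer cells of a type and less RNA per cell cannot be told apart. Replicate 3 stood apart in every group by its meningeal or fibroblast markers, whose summed signal relative to the 75th percentile was 25.9 to 32.7 in its 4 arrays and 1.44 to 8.29 in the other 8. Without replicate 3 the mean differences of the 6 genes, blocked minus untreated, were 0.88 (Rtn4r), 0.06 (Rtn4rl1), 0.01 (Rtn4rl2), -0.20 (Rtn4), -0.14 (Lingo1) and 0.31 log2 (Omg), against 0.88, 0.13, -0.01, -0.17, -0.22 and 0.30 with it.

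Rtn4r encodes the Nogo receptor, a leucine-rich repeat protein held on the neuronal surface by a lipid anchor. It binds inhibitory proteins of myelin: Nogo, myelin-associated glycoprotein and oligodendrocyte myelin glycoprotein. Having no part inside the cell, it signals through partners such as LINGO-1, the low-affinity neurotrophin receptor and TROY, which activate the small GTPase RhoA and its kinase ROCK. The pathway is best known for holding back axon regrowth, and in the hippocampus neuronal Nogo and its receptor also restrain synapse number and plasticity. Rtn4rl1 and Rtn4rl2 are the homologues of the receptor.

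The stretches of 250 bases before the annotated start of transcription are shown for Rtn4r, the gene that differed most in the mean of both times, and for Rtn4rl2 and Lingo1, whose levels ran alike over the arrays. They read 5′ to 3′ along the gene, from RefSeq on build GRCr8, and all lie on the minus strand: chr11:96373555-96373804 for Rtn4r, chr3:90377776-90378025 for Rtn4rl2 and chr8:65924167-65924416 for Lingo1. Capitals mark GC boxes (GGGCGG) and E-boxes (CANNTG) on either strand.
Rtn4r: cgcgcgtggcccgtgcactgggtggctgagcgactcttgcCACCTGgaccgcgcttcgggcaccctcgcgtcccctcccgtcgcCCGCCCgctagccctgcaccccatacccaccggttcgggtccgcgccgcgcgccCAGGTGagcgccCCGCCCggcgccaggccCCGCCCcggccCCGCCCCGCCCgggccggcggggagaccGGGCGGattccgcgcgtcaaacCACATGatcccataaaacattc
Rtn4rl2: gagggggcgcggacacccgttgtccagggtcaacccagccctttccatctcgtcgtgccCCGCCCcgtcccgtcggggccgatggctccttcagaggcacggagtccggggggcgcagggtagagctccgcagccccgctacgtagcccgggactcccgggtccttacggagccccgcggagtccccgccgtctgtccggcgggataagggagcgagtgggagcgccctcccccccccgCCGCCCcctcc
Lingo1: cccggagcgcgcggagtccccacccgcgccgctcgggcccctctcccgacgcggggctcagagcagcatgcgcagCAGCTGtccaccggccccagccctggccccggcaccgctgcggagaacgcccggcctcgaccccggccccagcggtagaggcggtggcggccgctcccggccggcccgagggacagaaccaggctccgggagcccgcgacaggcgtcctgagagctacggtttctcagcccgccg

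All of these windows are rich in G and C, with 76.4% for Rtn4r, 74.8% for Rtn4rl2 and 78.0% for Lingo1, against a median of 52.0% over 27457 rat promoters. The same window of Omg had 41.6%. The Rtn4r window holds 6 matches to the GC box and 3 to the E-box, letters that 32.4% and 65.2% of all promoter windows hold at least once. Rtn4rl2 has 2 GC boxes and no E-box, Lingo1 has 1 E-box and no GC box, and Omg has 2 E-boxes. The first part of the cyclic AMP response element, TGACG, occurs once in Rtn4r and in 19.0% of all windows, but the full TGACGTCA (1.70% of windows) and the Egr site GCGTGGGCG (0.514%) are in none of these 4 windows. An AP-1 match, TGANTCA, is found in the Omg window and in 6.36% of all. Both strands were searched, and the cyclic AMP response element motifs overlap each other.

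Rtn4r lay higher in blocked than in untreated cultures at both times. Untreated 9 h cultures read -1.49, -1.48 and -1.46 (log2 of the signal relative to the 75th percentile of the array), and blocked 9 h cultures -0.25, -0.19 and -0.16. At 26 h, untreated cultures read -0.94, -1.08 and -0.95 and blocked cultures -0.57, -0.46 and -0.46. Every blocked array lay above every untreated array, whichever the time, and the 4 groups did not overlap at all. Over all genes, the blocked arrays lay above the untreated ones of the same time without overlap for 18.9% at 9 h and 15.7% at 26 h. The share of genes with all blocked arrays above all untreated ones across times was not counted. From low to high the group means were -1.48 ± 0.02 (SD, n = 3) in untreated 9 h, -0.99 ± 0.08 in untreated 26 h, -0.50 ± 0.07 in blocked 26 h and -0.20 ± 0.05 in blocked 9 h cultures. The difference was 1.27 ± 0.08 log2 (SE, 2.42-fold) at 9 h and 0.49 ± 0.08 (1.41-fold) at 26 h, with a mean of 0.88 ± 0.06 (1.85-fold). Same-numbered pairs differed by 1.23 to 1.30 at 9 h and by 0.37 to 0.62 at 26 h, and Rtn4r was higher in 6 of 6 pairs. Within scan day 1, blocked 26 h minus untreated 9 h cultures gave 0.98, and within day 2, blocked 9 h minus untreated 26 h cultures gave 0.79.

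**Figure D1:**
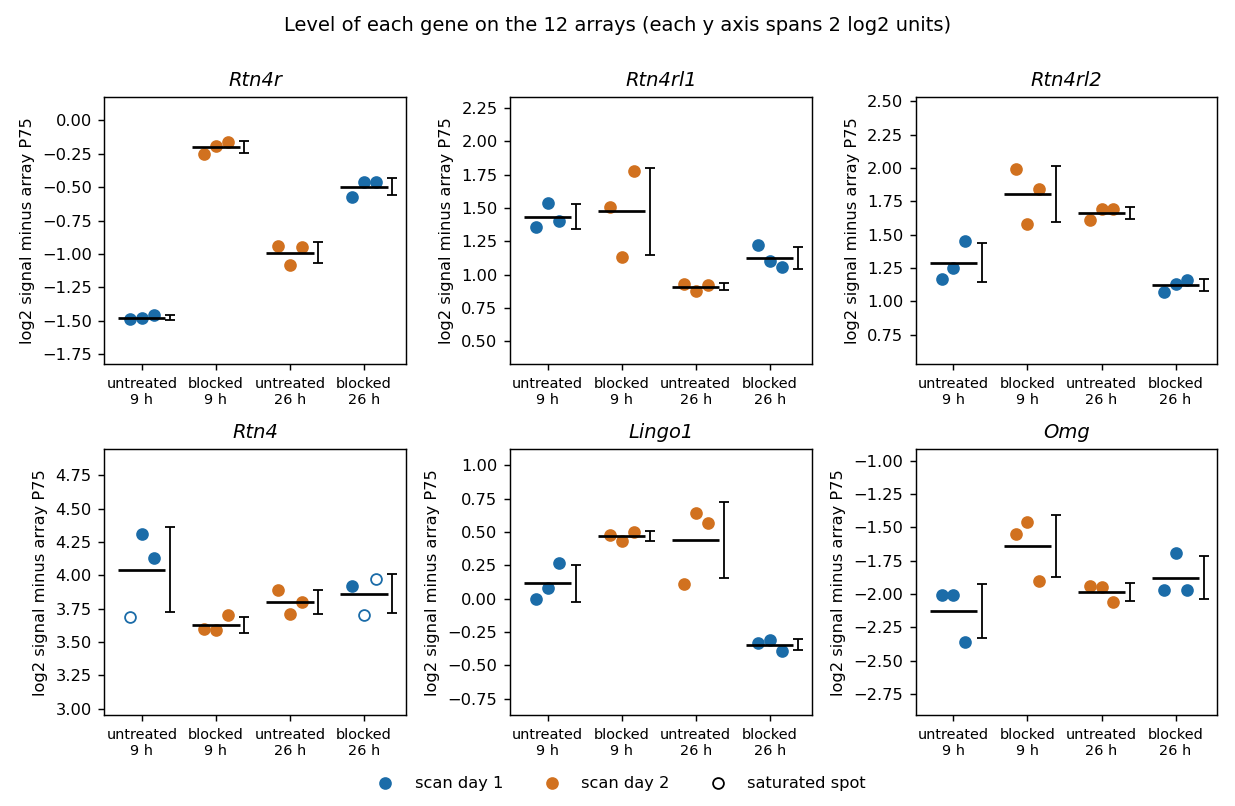
Level of the 6 genes on each array, as log2 signal minus the array's 75th percentile (P75), by group, with 3 arrays a group; lines are means, bars are SD, colours are scan days and open circles are saturated spots. The blocked arrays of Rtn4r, from -0.57 to -0.16, all sit above the untreated ones, from -1.49 to -0.94. Every day 2 array of Rtn4rl2, at 1.58 or more, sits above every day 1 array, at 1.45 or less. The share of all genes with either separation was not counted.

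Markers of excitatory neurons, as a sum, were also higher in blocked than in untreated cultures at both times. The summed signal of the 5 measured of 6 such markers, relative to the 75th percentile, ran from 7.78 to 9.30 in untreated 9 h, 10.9 to 15.2 in untreated 26 h, 15.3 to 17.2 in blocked 9 h and 17.2 to 19.7 in blocked 26 h cultures. The median sum was highest in blocked 26 h cultures (19.5, against 17.2 in blocked 9 h). Among these markers, Bhlhe22 alone had its highest group mean there (3.47 log2, against 2.51 in blocked 9 h). Neurod2 (1.94 in blocked 9 h, 1.54 in blocked 26 h), Neurod6 (2.66, 2.08), Slc17a7 (-1.26, -1.86) and Camk2a (-2.10, -2.26) were highest in blocked 9 h cultures, as Rtn4r was. Of the 5, 4 rose in the mean of both times: Neurod2 by 1.23, Bhlhe22 by 0.68, Neurod6 by 0.56 and Slc17a7 by 0.52 (limma, adjusted p from 1.57e-04 to 0.0141), with Camk2a at 0.33 (adjusted p = 0.217). Over all genes, 4.41% passed in either direction. At 26 h alone, Bhlhe22 (0.94) and Neurod2 (0.66) passed as higher, while Camk2a (0.22), Slc17a7 (0.10) and Neurod6 (-0.09) did not pass. Of the 8 general neuronal markers, 0 passed (limma, 3 at an unadjusted p under 0.05), with a median of 0.07. Markers of other cell types are given beside it. All 8 measured astrocyte markers were below 0 in the mean (median -0.19, limma, 0 passed and 2 at an unadjusted p under 0.05), and their summed signal was 46.0 to 63.0 in untreated and 39.6 to 52.4 in blocked 9 h cultures, then 44.1 to 70.2 and 43.9 to 59.8 at 26 h. The 6 interneuron markers had a median of 0.31 (limma, 0 passed and 0 at an unadjusted p under 0.05), with sums of 27.3 to 39.2 and 36.1 to 56.3 at 9 h and of 21.2 to 56.4 and 26.8 to 43.6 at 26 h. The part of these markers in the Rtn4r difference was not tested.

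The named genes whose level ran most like that of Rtn4r over the 12 arrays were Lrrn2, a leucine-rich repeat neuronal protein (Pearson r = 0.971), Neurod2, a transcription factor of excitatory neurons (0.970), and Ehd1, an endocytic recycling protein (0.967). They were picked from all named genes as the highest values, over arrays that share groups, scan days and replicate numbers. Their mean blockade differences were 0.53 for Lrrn2, 1.23 for Neurod2 and 0.30 for Ehd1. After the group means were removed, r was 0.0366 for Lrrn2, -0.257 for Neurod2 and 0.664 for Ehd1, so that for the first pair the likeness lay between groups and not among replicates.

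Rtn4rl2, the homologue that also binds myelin-associated glycoprotein, differed in opposite directions at the 2 times. It read 1.17, 1.25 and 1.45 in untreated and 1.99, 1.58 and 1.84 in blocked cultures at 9 h, then 1.61, 1.69 and 1.69 in untreated and 1.07, 1.13 and 1.16 in blocked cultures at 26 h. Blocked arrays lay above the untreated ones at 9 h and below them at 26 h, without overlap at either time, as 18.9% of all genes did upward at 9 h and 22.3% downward at 26 h. The differences were 0.51 ± 0.12 log2 (SE) and -0.54 ± 0.12, and their mean was -0.01 ± 0.08. Both groups of scan day 2 were the higher ones, and within a scan day the difference was -0.17 on day 1 and 0.14 on day 2. The change of direction and the scan day cannot be told apart.

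Rtn4rl1, the remaining homologue, was measured by 2 probes. Their blockade differences at 26 h had opposite signs, but neither was large beside its SE. The brighter probe read 1.36, 1.54 and 1.40 in untreated and 1.51, 1.13 and 1.78 in blocked cultures at 9 h, with overlap. At 26 h it read 0.93, 0.88 and 0.92 in untreated and 1.22, 1.10 and 1.06 in blocked cultures. All blocked arrays were higher there, as for 15.7% of all genes. The difference of the brighter probe was 0.04 ± 0.14 at 9 h and 0.22 ± 0.14 at 26 h. That of the dimmer probe, whose groups overlapped at both times, was 0.32 ± 0.23 and -0.26 ± 0.23. Averaged over both times, these came to 0.13 ± 0.10 and 0.03 ± 0.16. Both probes were lower at 26 h than at 9 h, by -0.44 ± 0.10 and -0.63 ± 0.16 log2, as a mean over treated and untreated cultures that is balanced over scan days. Within day 1 the brighter probe gave -0.31 for blocked 26 h minus untreated 9 h cultures, and within day 2 it gave 0.56 for blocked 9 h minus untreated 26 h cultures, so that the time difference enters with opposite signs.

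Rtn4, the gene of the ligand Nogo, had a bright and a dimmer probe. The brighter one read 3.69, 4.31 and 4.13 in untreated and 3.60, 3.59 and 3.70 in blocked cultures at 9 h, and 3.89, 3.71 and 3.80 against 3.92, 3.70 and 3.97 at 26 h. Groups overlapped at both times, and 3 of the 12 spots were saturated (untreated 9 h replicate 1, blocked 26 h replicates 2 and 3), so that those readings may be too low. The brighter probe differed by -0.41 ± 0.15 at 9 h and 0.06 ± 0.15 at 26 h. The dimmer probe, with no saturated spot, ran from 0.66 to 1.05 in untreated and 0.76 to 1.22 in blocked cultures at 9 h, and from 0.82 to 1.28 and 0.62 to 0.86 at 26 h. It differed by 0.14 ± 0.17 and -0.32 ± 0.17, the other way round from the brighter probe. The means over both times, -0.17 ± 0.11 and -0.09 ± 0.12, were small for either. The file names the same transcript for both probes, and which of the Nogo isoforms each detects was not examined here.

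Lingo1, the coreceptor with leucine-rich repeats and an immunoglobulin domain, was lowest in blocked 26 h cultures. It read 0.00, 0.08 and 0.27 in untreated and 0.48, 0.43 and 0.50 in blocked cultures at 9 h. At 26 h, untreated cultures read 0.11, 0.64 and 0.57 and blocked cultures -0.33, -0.31 and -0.39. The blocked arrays lay above the untreated ones at 9 h and below them at 26 h, with no overlap. Over all genes, 18.9% did so upward at 9 h and 22.3% downward at 26 h. Untreated 26 h replicate 1 of Lingo1 lay apart from its group. The difference was 0.35 ± 0.14 at 9 h and -0.79 ± 0.14 (1.72-fold lower) at 26 h, with a mean of -0.22 ± 0.10. Within scan day 1 it was -0.46, and within day 2 it was 0.03. The change of direction and the scan day cannot be told apart here either. Over the 12 arrays Lingo1 correlated with Rtn4rl2 at r = 0.88, and with Rtn4r at 0.00. Nearest to Lingo1 among named genes were the amino acid transporter gene Slc7a5 (r = 0.971), Brinp1 (0.970) and the spermidine synthase gene Srm (0.963), and nearest to Rtn4rl2 were the RNA-binding protein gene Zfp36l2 (0.993), the T-type calcium channel gene Cacna1i (0.988) and Ube3d (0.984).

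**Figure D2:**
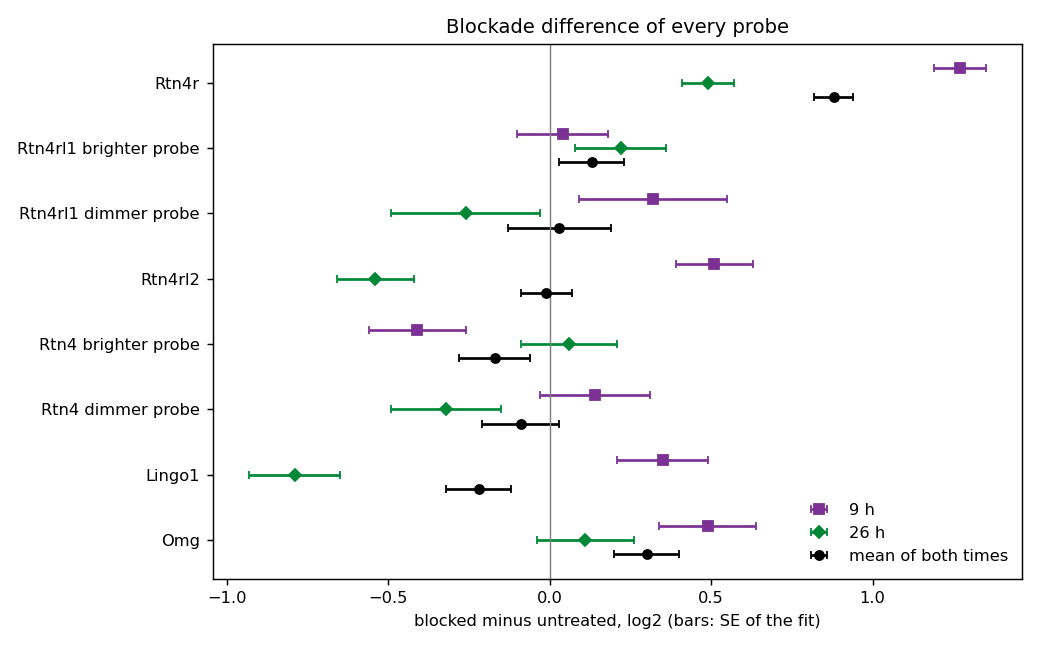
Blocked minus untreated log2 difference of each of the 8 probes at 9 h, at 26 h and as the mean of both times, with the SE of the fit over 12 arrays. Rtn4r lies right of zero at both times (1.27 and 0.49), while Rtn4rl2 (0.51 and -0.54) and Lingo1 (0.35 and -0.79) change side.

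Omg, whose product is a lipid-anchored myelin and neuronal protein, was a little higher in blocked cultures at 9 h. It read -2.01, -2.01 and -2.36 in untreated and -1.55, -1.46 and -1.90 in blocked cultures at 9 h. Blocked arrays were all higher there, as for 18.9% of all genes. At 26 h Omg read -1.94, -1.95 and -2.06 in untreated and -1.97, -1.69 and -1.97 in blocked cultures, with overlap. Replicate 3 read lowest, alone or tied, in every group. The difference was 0.49 ± 0.15 at 9 h and 0.11 ± 0.15 at 26 h, with a mean of 0.30 ± 0.10 (1.23-fold), and it was 0.25 within day 1 and 0.35 within day 2. The summed signal of the 12 measured oligodendrocyte lineage markers ran from 14.5 to 17.8 in untreated and 13.0 to 18.5 in blocked 9 h cultures, and from 17.3 to 28.0 and 13.5 to 18.5 at 26 h. Mal and Ermn, markers of mature oligodendrocytes, were not well above background in all arrays of any group. The median mean-of-times difference of this list was -0.23, with 0 members higher and 1 lower past the threshold, against 0.30 for Omg. Over the arrays Omg correlated with Rtn4r at 0.73 and with the brighter Rtn4 probe at -0.68, as a description over arrays that share groups. The named genes most like Omg were Vwa5b2 (r = 0.932), Htra4 (0.928) and B3galt5 (0.905), and those most like Rtn4 were the ribosomal protein gene Rpl22 (0.956), Dohh (0.950) and Med14 (0.940). Rtn4rl1 ran most like Usp3 (0.898), Avp (0.896) and Dio3 (0.879).

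**Figure D3:**
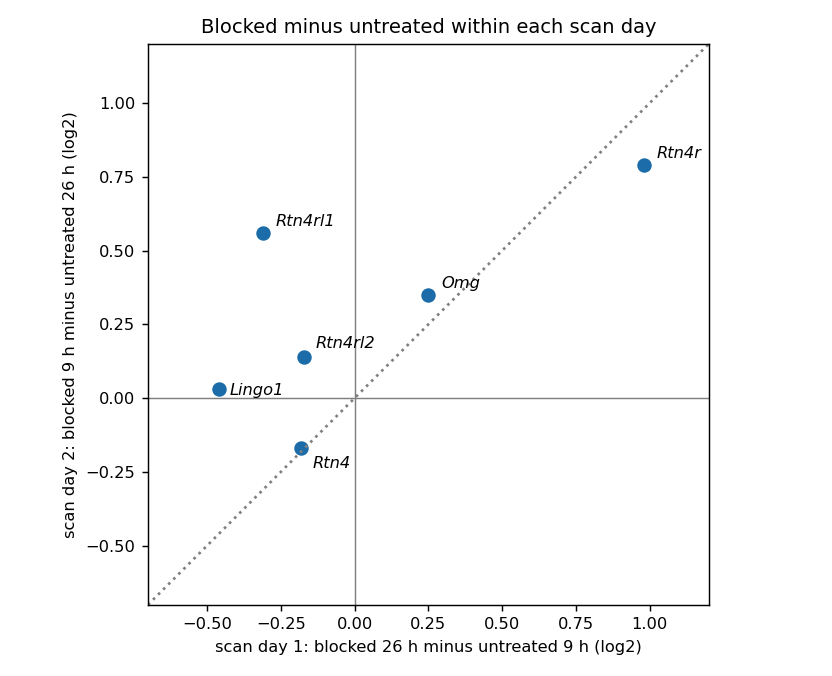
Blocked minus untreated log2 difference of the 6 genes within scan day 1 (x axis, blocked 26 h minus untreated 9 h) and within day 2 (y axis, blocked 9 h minus untreated 26 h), each from 3 arrays against 3; the dotted line marks equal values. Rtn4r (0.98 and 0.79) and Omg (0.25 and 0.35) are above zero on both days, Rtn4 (-0.18 and -0.17) is below on both, and Rtn4rl1, Rtn4rl2 and Lingo1 change sign.

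In the fit across all genes, 1 of the 6 genes, Rtn4r, lay past the limma threshold for the mean of both times, where 4.41% of all genes did. With the replicate number as a block, Omg passed as well, beside 12.8% of all genes. At 9 h, 3 of the 6 passed, all higher (Rtn4r, Rtn4rl2 and Omg), where 11.7% of all genes passed as higher. At 26 h, Rtn4r passed as higher and Rtn4rl2 and Lingo1 as lower, where 6.95% and 9.18% of all genes did so. For 26 h minus 9 h, Rtn4rl1 alone passed, as lower, beside 7.77% of all genes. The difference between the effects at the 2 times passed for 3 of the 6 (Rtn4r, Rtn4rl2 and Lingo1), beside 28.6% of all genes. With replicate 2 of every group left out, Rtn4r lay short of the threshold for the mean (0.85 log2), at 9 h (1.27) and at 26 h (0.43). Without replicate 3 it did so at 26 h (0.49). Of all 21250 genes, the fit without replicate 2 called 31 for the mean, 0 at 9 h and 20 at 26 h. The fit without replicate 3 called 451 at 26 h. Leaving out any 1 of the 3 numbers ended the calls of Rtn4rl2 at 9 h (0.36 to 0.61) and 26 h, of Omg at 9 h and of Rtn4rl1 for 26 h minus 9 h, and leaving out number 2 or 3 ended that of Lingo1 at 26 h (-0.70). Single arrays did so too: 8 of 12 for Omg at 9 h (0.37 to 0.54 over all leave-outs that ended it), 3 of 12 for Rtn4rl1 (-0.48 to -0.36) and 2 of 12 for Rtn4rl2 at 26 h (-0.55 to -0.51). The 3 calls on the difference between times ended without replicate 2, where 3 of all genes passed. The comparisons were in view when the 6 genes were chosen, so nothing is read from these counts. The median difference of the 6 was 0.06 log2 for the mean of both times, beside -0.02 over all genes.

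Other genes of the pathway came from 4 lists. Of 87 genes listed, 71 were measured, and 2 rose and 2 fell in the mean of both times (limma over all genes), so that the share called, 5.63%, lay near the 4.41% of all genes. With the replicate block 4 rose and 7 fell, a share of 15.5% beside the 12.8% of all genes. The 4 calls of the fit without a block ended without replicate 2 and without replicate 3 of every group. Those of Sdc3, Lgi1 and Acan also ended without replicate 1. For the mean, 31 of all genes passed without replicate 2, 358 without replicate 3 and 405 without replicate 1. Over these fits the values were 0.55 and 0.61 for Olfm1 (limma adjusted p of 0.231 and 0.0623), 0.34 to 0.47 for Sdc3 (0.116 to 0.366), -0.55 to -0.51 for Lgi1 (0.0515 to 0.393) and -0.66 to -0.42 for Acan (0.127 to 0.477). The lists had medians of -0.07 (other ligands), -0.01 (other coreceptors), -0.05 (downstream signalling) and 0.05 log2 (other growth inhibitors).

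Among 17 other ligands and binding partners, Olfm1 rose and Lgi1 and Acan fell. Olfm1, a secreted olfactomedin reported to bind the Nogo receptor, rose by 0.56 ± 0.08 (SE, 3 arrays in each of 4 groups, limma adjusted p = 0.00415). It differed by 0.91 at 9 h and 0.20 at 26 h, and at 26 h it did not pass. Lgi1, a secreted synaptic protein and another Nogo receptor ligand, fell by 0.53 ± 0.09 (adjusted p = 0.0118 by limma). Its difference was 0.29 at 9 h and -1.34 at 26 h, where only the latter passed. The call of Lgi1 for the mean of both times ended with median scaling (limma adjusted p = 0.0588) and with the deposited matrix (0.0695). Acan, the core protein of the proteoglycan aggrecan, fell by 0.57 ± 0.13 (limma adjusted p = 0.0362), a call that also ended without the filter on dim probes (0.0588) and when any of 9 of the 12 arrays was left out in turn (0.0620 to 0.0945). Mag, the myelin-associated glycoprotein gene (-0.06), the adhesion receptor gene Adgrb1 (-0.14) and the reticulon genes Rtn1 (-0.11), Rtn2 (0.12) and Rtn3 (0.16) did not pass in the mean. At 9 h alone, Rtn2 (0.39) and Rtn3 (0.60) passed as higher (limma adjusted p = 0.0247 and 0.00410).

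Among 14 other coreceptors and receptors measured, Sdc3 (syndecan), a heparan sulphate proteoglycan of axons, rose by 0.41 ± 0.08 (limma adjusted p = 0.0170). It differed by 1.00 at 9 h and -0.17 at 26 h, and as a mean of its probes it did not pass (adjusted p = 0.104). The call also ended without blocked 9 h replicate 2 (adjusted p = 0.0511) and without blocked 26 h replicate 2 (0.0530), and either left 2 of the 4 pathway calls. The signalling partners of the Nogo receptor did not pass: Ngfr, the low-affinity neurotrophin receptor, had -0.64 ± 0.49 and Tnfrsf19 (TROY) -0.03 ± 0.13. Ngfr was well above background on only 2 of the 3 blocked 26 h arrays, and its value ran from -0.97 to -0.21 with arrays left out. The Lingo1 paralogues Lingo2 (0.11), Lingo3 (-0.05) and Lingo4 (0.25) did not pass either. Nor did the chondroitin sulphate proteoglycan receptor gene Ptprs (0.21), which passed as higher at 9 h (0.52, limma adjusted p = 0.00437), or S1pr2 (-0.00), a further receptor for Nogo. Lilrb3, listed as an alternative receptor, was not analysed here.

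Of 21 downstream genes measured, 0 passed for the mean of both times (limma, 3 at an unadjusted p under 0.05), though Arhgef11 (0.23), Limk1 (-0.26) and Myl9 (-0.79) did with the replicate block. Rhoa had -0.09 ± 0.10 and Rock2 -0.20 ± 0.11, and Rock1 was not analysed here. Of 19 other growth inhibitors and their receptors, 0 passed (limma, 4 at an unadjusted p under 0.05). Epha4 (0.29) and Sema3a (-0.48) did with the replicate block, as did Amigo3 (-0.41) and Ptprf (-0.24) among the coreceptors.

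**Figure D4:**
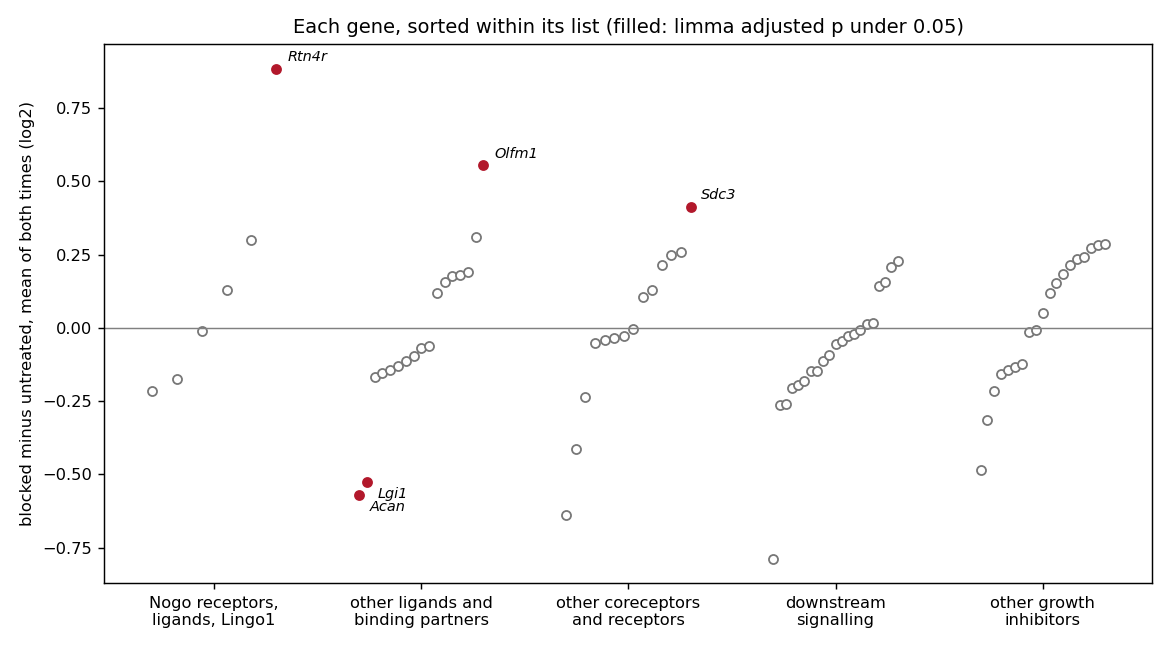
Mean-of-times log2 difference, blocked minus untreated, of the 6 genes and of the 4 pathway lists, each point a gene, sorted within its list; filled points passed limma's adjusted threshold. The filled points are Rtn4r (0.88), Olfm1 (0.56), Sdc3 (0.41), Lgi1 (-0.53) and Acan (-0.57), and the other genes lie between -0.79 and 0.31.

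At a single time the pathway genes were called more often. At 9 h, 16 of the 71 rose and 2 fell, a share of 25.4% beside 21% of all genes in either direction. At 26 h, 1 rose and 10 fell, a share of 15.5% beside 16.1%. By direction, 11.7% of all genes passed as higher and 9.34% as lower at 9 h, and 6.95% and 9.18% at 26 h. Among the pathway genes, the small GTPase gene Rhob differed by 1.12 at 9 h and -0.84 at 26 h. Cntnap1, an axonal adhesion protein, differed by 1.34 and -0.82, and the netrin receptor gene Unc5c by 0.63 and -0.88. These genes were chosen after their values were seen. Like Rtn4rl2 and Lingo1, they were higher on day 2 than on day 1 in both pairs of groups.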

How the data were processed

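RNA of the 12 samples was read on 12 Agilent arrays in a single colour (Cy3). The deposited scanner output came from Agilent Feature Extraction 10.5.1.1, per the file headers. Its processed signal is an intensity from which background was subtracted and a spatial trend removed, array by array. The authors' value matrix holds log2 values, and it differs from log2 of the processed signal by a constant per array (slopes of 1 within rounding); the rule for the constants is unknown, and the column medians ran from 7.57 to 7.75.

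For the level used here, the log2 processed signal of an array was set relative to its 75th percentile, after control spots and 3751 spots with outlier flags were dropped. The filter on dim probes asked that every array of 1 or more groups read well above background (24034 of 30367 probes kept). Probes were named through RefSeq transcript accessions of the GRCr8 gene table (18004 probes matched), and a gene was its kept probe with the highest mean. The 21250 resulting genes or unnamed targets entered limma 3.58.1 under R 4.3.3 (a mean per group, 12 arrays, two-sided, Benjamini-Hochberg over all of them, threshold 0.05), which was tested on simulated data. The median SE was 0.12 log2 for the mean of both times and 0.17 at 1 time, and the number of arrays limits this precision.

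At each time, untreated and blocked arrays with the same replicate number deviated together from their group means (correlations of 0.177 to 0.657 over 6 pairs, all over the preset 0.1), though the labels do not say that a number marks a shared culture. The lowest over all same-numbered pairs was -0.0403. A fit with that number as a block was therefore added.

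The 6 genes, the 4 pathway lists and the marker lists were chosen with earlier results of these data known. Named were all 6 genes, the pathway genes past the threshold for the mean of both times, the preset receptors, ligands and effectors, for each of the 6 genes its 3 most alike named genes over the arrays, and 5 activity genes. The reticulon and Lingo paralogues, the cell type markers, the genes called with the replicate block only, and Rhob, Cntnap1 and Unc5c lie outside that rule and were named with their values seen. Promoter sequences are from RefSeq (GRCr8). Alternatives were other scalings, the deposited matrix, normexp background correction (offset 50) on the median spot and background intensity, no filter on dim probes, means of probes, outlier spots kept, replicate and slide blocks, single-time fits, scan days apart and left-out arrays.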

Additional observations from a re-analysis of the deposited data

Results flagged for a closer look

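For 3 of the 6 genes the blockade difference at 9 h and that at 26 h lay past limma's adjusted threshold from each other, as did 28.6% of all genes. The genes were chosen with these values in view, so they are given as a description. Without replicate 2 of every group none of the 3 lay past it (0.83 for Rtn4r, 1.14 for Rtn4rl2 and 1.06 for Lingo1). That fit called only 3 of all 21250 genes. The blockade difference at 9 h minus that at 26 h was 0.78 ± 0.11 log2 (SE) for Rtn4r, from 1.27 and 0.49. It was 1.05 ± 0.17 for Rtn4rl2, from 0.51 and -0.54, and 1.14 ± 0.19 for Lingo1, from 0.35 and -0.79. Among the named pathway genes it was 1.63 for Lgi1, 0.72 for Olfm1, 1.17 for Sdc3 and 0.61 for Ptprs. This contrast is the same sum of groups as scan day 2 minus scan day 1, so time and scan day cannot be told apart in any of these values.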

How the results depend on the processing

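Under the 10 alternative settings that applied (scaling, background, filter, probes, outlier spots, blocks), the mean-of-times difference of Rtn4r ran from 0.83 to 0.92 and stayed past the threshold in each. It ran from 0.08 to 0.17 for Rtn4rl1, -0.02 to 0.03 for Rtn4rl2, -0.20 to -0.10 for Rtn4, -0.22 to -0.18 for Lingo1 and 0.29 to 0.34 for Omg, which passed with the replicate block and with slide as a random block. With arrays or numbers left out in turn it ran from 0.85 to 0.92 for Rtn4r, which lost its call without replicate 2 (31 of all genes passed there). For Lingo1 it ran from -0.33 to -0.14, and Lingo1 gained a call without untreated 26 h replicate 1. Within scan day 1 and day 2 the differences were 0.98 and 0.79 (Rtn4r), -0.31 and 0.56 (Rtn4rl1), -0.17 and 0.14 (Rtn4rl2) and -0.46 and 0.03 (Lingo1).

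The 9 h call of Omg ended under the quantile, median and deposited-matrix scalings and with the arrays of 9 h alone, that of Rtn4rl2 with those arrays alone, and Rtn4 passed at 9 h with quantile scaling and normexp, and with quantile scaling also at 26 h (0.27, against 0.06) and between times (-0.72, against -0.47). Rtn4 also passed at 9 h without untreated 9 h replicate 1 (-0.59) and without replicate 1 (-0.57), and Lingo1 at 9 h without untreated 26 h replicate 1 (0.35). As the mean of its probes, Rtn4 differed by -0.14 at 9 h and Rtn4rl1 by -0.02 at 26 h. The paired analysis with the replicate block changed no other call of the 6 genes at either time.

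Over all genes, the mean of both times gave 937 calls, against 2726 with the replicate block, 2977 with slide as a random and 2275 as a fixed block, and 31 to 966 with arrays or numbers left out. The 9 h count of 4463 became 7538 with the replicate block and 2014 with the arrays of 9 h alone, and 0 to 4623 with leave-outs. The 0 arose without replicate 2 (limma, 4009 at an unadjusted p under 0.05). The 26 h count of 3427 became 6637 with the block and 2275 with the arrays of 26 h alone, and 20 to 4438 with leave-outs. The difference between times (6071) became 9474 with the block, 3510 with slide as a random block and 3 to 6167 with leave-outs, and 26 h minus 9 h (2685) became 5602, 6044, 5183 with slide as a fixed block, and 165 to 2549. The alternatives for these last 2 counts were added after the data were seen. The 4 pathway calls became 11 with the replicate block, 14 and 9 with slide as a random and a fixed block, and 0 to 6 with leave-outs. The causes were not tested. Signal over background limits what can be read, and a saturated spot of Rtn4 gives a lower bound only.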
